A study of Mus musculus with 7 samples.

Results

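The DNA replication and repair machinery was examined here as 84 genes, in HopX-positive cells sorted from the mouse brain at 3 stages. The genes were taken by name. They were the minichromosome maintenance genes Mcm2 to Mcm10, the Orc, Gins, Rfc, Prim, Rpa and Fanc genes, those whose symbols start with Rad5, the numbered Msh genes, the Xrcc genes and the numbered subunits of DNA polymerases alpha, delta and epsilon, together with 14 further genes such as Pcna, Cdc6, Rrm2, Fen1 and Brca1. By this rule 86 rows of the table matched, and 85 of them reached at least 1 TPM (transcripts of a gene per fixed total of transcripts) in at least 2 of the 7 libraries, as did 15931 of the 24978 rows. Pold4 was listed under 2 gene identifiers with identical values and was counted once, and its level is uncertain for that reason. Rad51ap2, which lay between 0 and 1.06 TPM, was the only match that did not reach the minimum. Fancd2os and Rad54l2 matched by their names only and were kept apart from the functional groups. Pole, which encodes the catalytic subunit of polymerase epsilon, has no digit in its symbol and is not among the 84.

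Before a cell divides, the origin recognition complex (ORC), with CDC6 and CDT1, loads the ring-shaped MCM2-7 helicase onto origins in G1. In S phase CDC7 kinase, CDC45, the GINS complex and MCM10 turn the helicase on, and primase, the replicative polymerases, the PCNA clamp with its RFC loader and the single-strand binding protein RPA copy the DNA. Many of these genes are transcribed under E2F factors and are switched off as progenitors leave the cycle. Mismatch repair, the Fanconi anaemia pathway, homologous recombination and end joining correct errors and mend breaks, and end joining also acts in cells that no longer divide.

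The cells came from the brains of C57BL/6 mice, were isolated by fluorescence-activated sorting as HopX-positive, and are called neural progenitor cells in the labels. There were 2 libraries at E15 (embryonic; replicates 1 and 2), 2 at P3 (early postnatal; replicates 1 and 3) and 3 from the adult (replicates 1 to 3), with no treatment or allele named for any stage. The sources used here do not give how HopX was detected, the brain region, the adult age or any pooling of animals, so region and stage cannot be told apart. Separate animals are not stated either, and p-values therefore reflect only how far these samples spread, possibly for technical reasons.

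TPM keeps no record of read number, so library depth is unknown and counting intervals are not given. Libraries summed to between 998450 and 999193 TPM. Rows listed at 0 made up 19.0% to 21.2% of the table at E15 and P3 and 26.5% to 31.4% in the adult. Hopx itself stood at 62.9 and 60.5 TPM at E15, then 171 and 112 at P3, then 219.8, 249 and 229.5 in the adult. All 11 radial glia and progenitor markers were detected in every library, and from E15 to the adult 6 of them fell, among them Nes, and 4 rose. Of the markers of other cells, 7 of 7 tested for intermediate progenitors and 11 of 12 for immature neurons fell over that span, and 7 of 10 for microglia rose, from sums of 4.71 and 4.49 TPM at E15 to between 205 and 277 in the adult. Of all rows, 24.7% fell and 15.4% rose over that span. Intermediate progenitor markers summed to between 1180 and 1226 TPM at E15, 559.8 and 811 at P3, and between 152 and 243 in the adult. The 7 ependymal markers summed to 13.8 and 21.5 TPM at E15, then 400 and 272 at P3, then 27.84 to 36.45 in the adult. All 5 of them that were tested rose from E15 to P3 and fell from P3 to the adult, against 5.56% and 13.8% of all rows. The 10 astrocyte markers summed to 749 and 591 TPM at E15, then 5930 and 3656 at P3, then between 15249 and 16838 in the adult, and the 10 markers of G2 and M phase to 1899 and 1318, 872 and 1281, and 113 to 152. The part of this shift in cell make-up in the results below was not tested.

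The letters before the start of transcription are shown for 6 genes with different courses over the stages, because E2F sites are the textbook control of this gene group. Mcm5, Mcm6 and Gins3 fell from E15 to the adult, while Orc6, Xrcc4 and Pola2 were not called lower in the adult. Each line gives the 250 bases before the start, 5′ to 3′ on the gene's own strand, from RefSeq on build GRCm38.p6, and capitals mark an E2F core (TTCCCGC or TTGGCGC or TTCGCGC or TTGCCGC on either strand, with overlapping matches joined). The build is that of the promoter table and not of the authors' alignments (mm9).
Mcm5, chr8:75109259-75109508, plus strand: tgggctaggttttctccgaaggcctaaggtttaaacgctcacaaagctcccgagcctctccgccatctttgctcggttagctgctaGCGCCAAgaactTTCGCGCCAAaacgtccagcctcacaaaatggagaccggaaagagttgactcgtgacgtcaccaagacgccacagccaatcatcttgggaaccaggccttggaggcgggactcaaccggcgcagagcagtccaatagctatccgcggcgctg
Mcm6, chr1:128359706-128359955, minus strand: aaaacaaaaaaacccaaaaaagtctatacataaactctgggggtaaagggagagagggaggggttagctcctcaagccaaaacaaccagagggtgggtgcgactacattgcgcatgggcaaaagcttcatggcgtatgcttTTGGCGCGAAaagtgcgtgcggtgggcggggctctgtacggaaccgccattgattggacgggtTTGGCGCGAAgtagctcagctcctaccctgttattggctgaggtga
Gins3, chr8:95633309-95633558, plus strand: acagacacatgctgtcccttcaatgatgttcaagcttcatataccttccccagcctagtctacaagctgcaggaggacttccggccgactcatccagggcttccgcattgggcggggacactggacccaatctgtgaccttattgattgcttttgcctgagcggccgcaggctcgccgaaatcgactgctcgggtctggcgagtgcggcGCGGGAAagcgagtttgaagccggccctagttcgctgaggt
Orc6, chr8:85299382-85299631, plus strand: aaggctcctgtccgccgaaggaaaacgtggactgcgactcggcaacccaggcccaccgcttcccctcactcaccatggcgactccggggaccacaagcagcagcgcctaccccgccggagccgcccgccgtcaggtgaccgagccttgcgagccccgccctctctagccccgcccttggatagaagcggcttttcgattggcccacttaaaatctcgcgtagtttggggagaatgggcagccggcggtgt
Xrcc4, chr13:90089609-90089858, minus strand: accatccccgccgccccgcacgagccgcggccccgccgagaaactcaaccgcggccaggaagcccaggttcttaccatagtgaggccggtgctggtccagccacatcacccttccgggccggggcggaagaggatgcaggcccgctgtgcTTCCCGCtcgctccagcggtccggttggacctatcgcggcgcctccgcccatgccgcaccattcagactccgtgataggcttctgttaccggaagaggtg
Pola2, chr19:5964207-5964456, minus strand: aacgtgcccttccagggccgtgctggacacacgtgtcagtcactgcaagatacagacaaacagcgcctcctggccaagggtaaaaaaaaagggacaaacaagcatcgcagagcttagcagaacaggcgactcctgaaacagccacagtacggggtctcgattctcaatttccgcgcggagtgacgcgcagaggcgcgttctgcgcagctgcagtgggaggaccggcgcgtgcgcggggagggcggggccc
Mcm5 holds 3 matches and Mcm6 holds 4 in these lines, in which 2 pairs of Mcm6 matches and 1 pair of Mcm5 matches run into each other. Gins3 and Xrcc4 hold 1 match each, and Orc6 and Pola2 hold none.

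Over the whole window of 300 bases, which adds 50 bases after the start, a promoter was found for 68 of the 84 genes. An E2F core stood in 43 of them (63.2%), against 18.7% of the 10846 tested genes with a promoter and 10.9% of all 27025. The share was 66.7% (30 of 45) among the genes that fell from E15 to the adult and 56.5% (13 of 23) among the others, so that most genes that were not called lower in the adult held the letters too. The genes shown above do not stand for the whole group. Mcm2, Rad54l and Tyms fell and held no E2F core, while Pole4 was not called lower and held the letters. The CCAAT box (CCAAT on either strand) stood in 61.8% of the 68, against 43.4% of tested genes. It was in 33 of the 45 that fell (73.3%) and in 9 of the other 23 (39.1%). The cell-cycle homology region (TTTGAA or TTCGAA) was in 14.7%, against 17.0% of tested genes. Among the MCM2-7 genes with a promoter, 4 of 5 held an E2F core and 5 of 5 a CCAAT box. These letters were matched without a test and show no binding.

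Most of the machinery fell between E15 and the adult, and 1 gene of it changed between E15 and P3. The 84 genes together made up 0.552% and 0.499% of the TPM at E15, then 0.401% and 0.495% at P3, then 0.195%, 0.243% and 0.206% in the adult. The adult sum averaged 40.8% of that at E15 and the P3 sum 85.2%. In bulk samples such as these, fewer dividing cells and less RNA per cell cannot be told apart. Differences between stages were tested with limma on log2(TPM + 1) over all 15931 rows, with a Benjamini-Hochberg adjusted p under 0.05 as the call, and every log2 change below is on that scale, which understates the change of genes near 0.

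Between E15 and P3, 1 of the 84 genes fell (Pola2) and none rose, where 1.08% of all tested rows fell and 5.56% rose. At an unadjusted p under 0.05 in limma, 9 were lower and 1 was higher, against 1794 and 1963 of all 15931 rows. The median log2 change was -0.29, beside -0.15 over all tested rows. Between P3 and the adult, 39 genes fell and 1 rose (Pola2), against 13.8% and 8.39% of all rows, with a median of -1.11 beside -0.13. Without P3 replicate 3, the median was -0.98 beside -0.09. Without P3 replicate 1, it was -1.31 beside -0.16. Without Adult replicates 1 and 3 together, an alternative chosen after seeing the data, it was -0.88 beside -0.13. Each of these fits keeps 1 library in a stage, and in each fewer of the 84 genes and fewer of all rows were called lower. Between E15 and the adult, 58 genes fell and 1 rose (Pold4), against 24.7% and 15.4% of all rows, with a median of -1.35 beside -0.30. Without E15 replicate 1 the median was -1.38 beside -0.34, and without E15 replicate 2 it was -1.55 beside -0.26. In both fits, fewer of the 84 genes and fewer of all rows were called lower. Median-of-ratios scaling moved the median of all rows to -0.06 and that of the 84 genes to -1.06, left 45 genes lower and 3 higher, and changed the split of all calls from 3930 lower and 2457 higher to 2775 lower and 3063 higher. Of the 58 falls from E15, 26 were called under every alternative and 10 were lost under at least 10 of them (Brca1, Fancb, Gins2, Pola1, Pold1, Rfc1, Rpa2, Xrcc2, Xrcc3 and Xrcc5). Of the 39 falls from P3, 10 were called under every alternative and 5 were lost that often (Exo1, Fancb, Gins2, Orc4 and Xrcc2).

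The libraries of the outer stages seldom overlapped. Every E15 library lay above every adult library in 68 genes (81.0%, against 38.8% of all rows) and below every adult library in 3 (3.57%, against 22.3%), which were Pold4, Pole4 and Xrcc4. By pattern of calls, 37 genes were lower in the adult than at both earlier stages, 21 only than at E15 and 2 only than at P3, and 22 passed in no comparison. Those 22 were Cdc6, Cdt1, Orc3, Orc6, Mcm9, Pole2, Pole4, Xrcc4, Msh4, Msh5, 7 Fanconi genes, Rad50, Rad51b, Rad51c, Rad51d and Rad52. Of all rows, 24.7% were called lower in the adult than at E15 and 13.8% lower than at P3. Their shares by pattern were not counted.

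**Figure D1:**
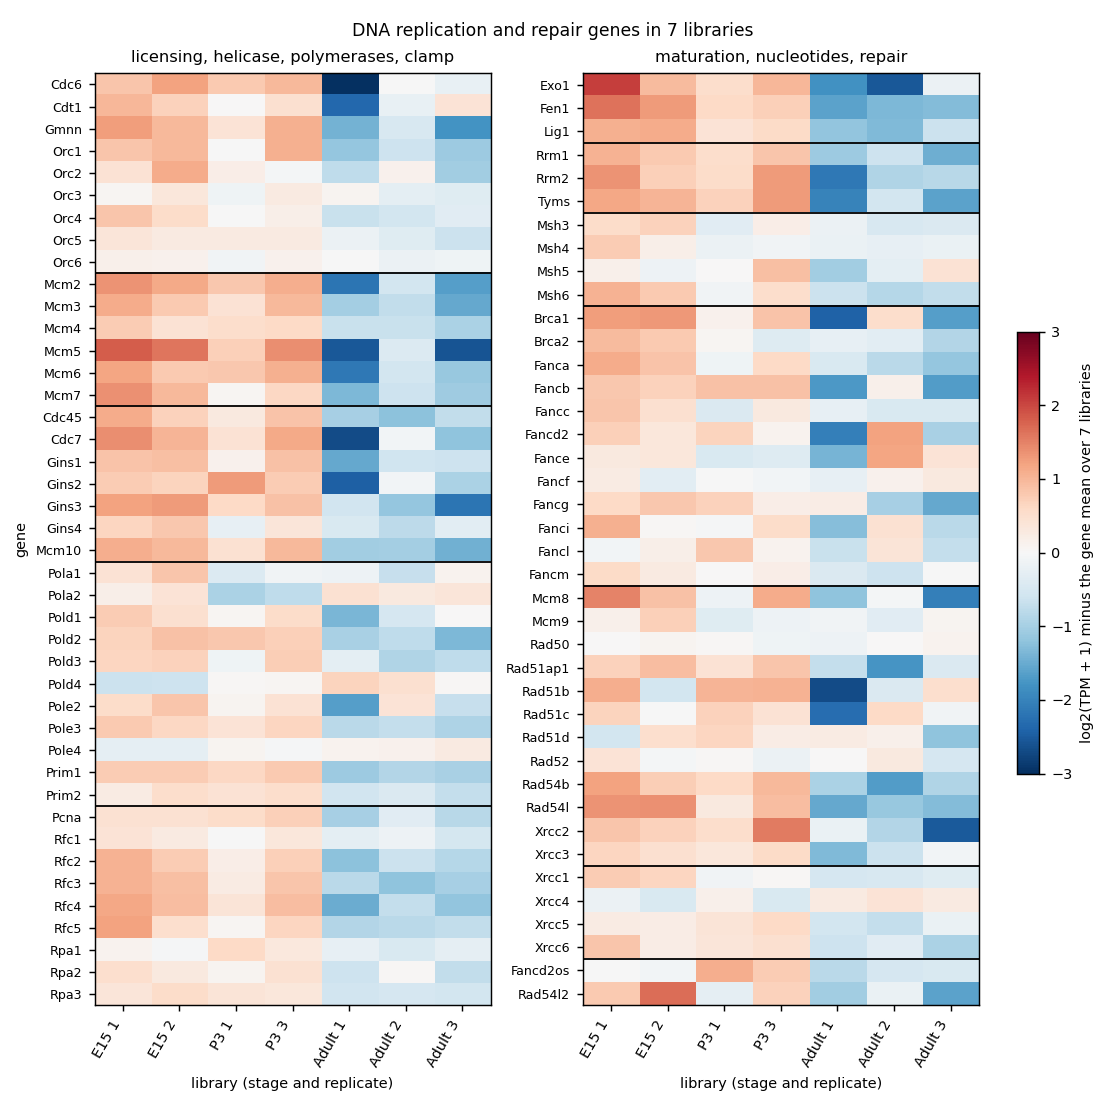
Each row is a gene (82 of the 84) and each column a library, with log2(TPM + 1) minus the gene's mean over the 7 libraries in color (red above, blue below) and black lines between functional groups. Most rows turn from red at E15 and P3 to blue in the adult, and Orc6, Pole4, Rad50, Rad52 and Xrcc4 are among the pale rows.

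**Figure D2:**
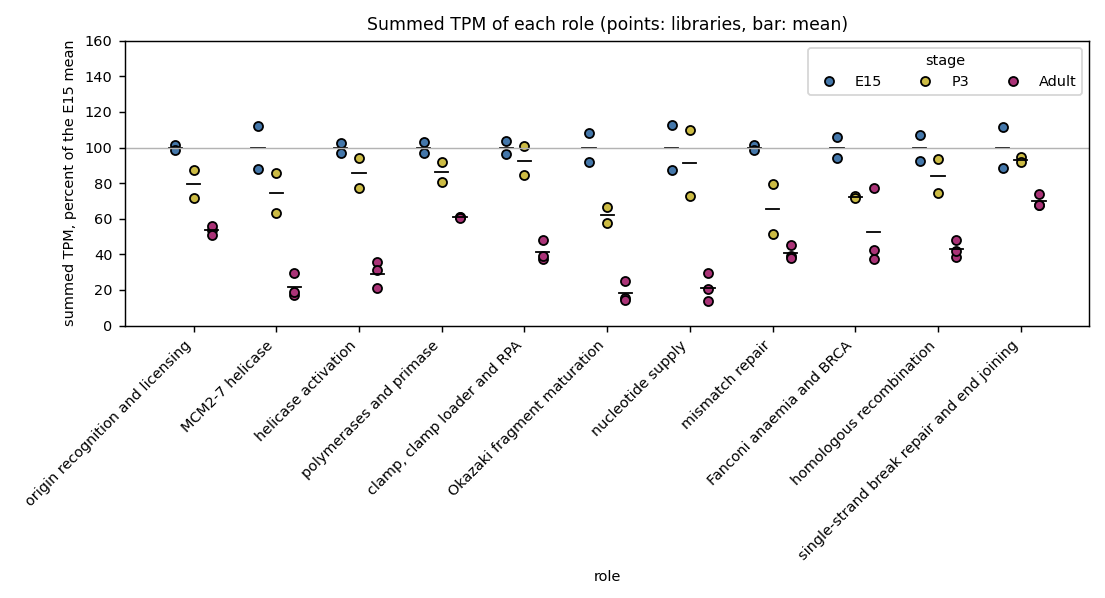
The summed TPM of each functional group is shown as a percentage of its E15 mean on the vertical axis, with a point per library and a bar at the stage mean. Adult means range from 18.1% for Okazaki fragment maturation to 69.9% for single-strand break repair and end joining.

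Among the origin recognition and licensing genes, Orc3 and Orc6 stayed near their embryonic level in the adult and others fell. Cdc6 and Cdt1 had lower estimates in the adult than at E15 (log2 changes of -2.275 and -1.559) that were not called (limma adjusted p = 0.0845 and 0.1225). Of 9 genes, 5 fell from E15 to the adult (Orc1, Orc2, Orc4, Orc5 and Gmnn; median of the 9, -1.34) and 3 from P3 (Orc1, Orc4 and Gmnn). The first count was 2 without either E15 library, 2 without Adult replicates 1 and 3 together and 3 with median-of-ratios scaling. The second was 1 without either E15 library and 0 without P3 replicate 3. Summed TPM of the 9 genes in the adult was 53.6% of that at E15. For these and the group counts below, 24.7% of all rows fell from E15 to the adult and 13.8% from P3.

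Orc6, which is loosely attached to the rest of the complex and needed for loading MCM2-7, stood at 163 and 159.7 TPM at E15, then 136 and 161 at P3, then 146, 129.9 and 133 in the adult. P3 overlapped both other stages and the adult libraries lay just below those at E15, and the log2 change from E15 to the adult was -0.25 (95% confidence interval -0.59 to 0.10; limma adjusted p = 0.224). Orc3, a core subunit, read 95.2 and 116 TPM at E15, then 83.8 and 110.3 at P3, then 97.1, 74.2 and 70.6 in the adult. The stages overlapped, with a log2 change of -0.39 from E15 to the adult (95% confidence interval -0.88 to 0.10; limma adjusted p = 0.178). Orc1, the ATPase subunit whose level cycles in dividing cells, was low throughout, at 5.91 and 6.60 TPM, 2.81 and 7.07 TPM, and 0.724, 1.52 and 0.813 TPM in the same order. All adult libraries lay below all others, and Orc1 fell by 1.86 from E15 (SE 0.42, limma adjusted p = 0.00898), a call lost without either E15 library and without Adult replicates 1 and 3 together. The level of Orc6 over that of Orc1 was 22.8 to 48.5 in the E15 and P3 libraries and 85.6 to 201 in the adult ones.

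Orc4, another ATPase-fold subunit, was at 231 and 190.5 TPM at E15, then 128 and 146 at P3, then 81.0, 88.7 and 102 in the adult. It stepped down at each stage without overlap, by 1.21 from E15 to the adult (SE 0.17, limma adjusted p = 0.00101). That call held under every alternative, while its call from P3 was lost under 15 of 20. Gmnn, whose product geminin blocks re-licensing by holding CDT1, had 128 and 107 TPM at E15, then 71.5 and 113 at P3, then 19.6, 38.0 and 14.9 in the adult. Its fall of 2.34 (SE 0.38, limma adjusted p = 0.00181) was the largest of the licensing group. Cdc6, a loader, was listed at 0 in Adult replicate 1 and read 10.5 and 9.01 TPM in the other adult libraries, against 19.1 to 25.9 at E15 and P3, and it passed in no comparison. Exons of Orc6, Orc4 and Orc2 overlap those of other protein-coding genes on the opposite strand in GENCODE M21 (Vps35, Acvr2a and Mbd5, and Nif3l1). The sources used here do not give whether counting used strand, so reads of such pairs cannot be told apart. Across the whole gene set, 35 genes share exon sequence with another gene, 26 of them with a protein-coding gene on the opposite strand. Not every such overlap is named below.

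All 6 genes of the MCM2-7 helicase, the ring that unwinds DNA at the fork, were lower in the adult than at E15 and than at P3, with medians of -2.22 and -2.01. From E15 the count was 6 under every alternative but one, since Mcm6 missed the threshold without E15 replicate 1 (limma adjusted p = 0.0570). From P3 it was 3 without P3 replicate 1, 1 without P3 replicate 3 and 3 without Adult replicates 1 and 3 together. Their summed TPM was 74.5% of the E15 mean at P3 and 21.9% in the adult.

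Mcm5 was at 62.4 and 53.1 TPM at E15, then 28.3 and 46.0 at P3, then 2.07, 12.5 and 1.98 in the adult, which made it the gene with the largest fall of the 84. Adult replicate 2 stood well above the other adult libraries and still below all earlier ones, and the log2 change from E15 was -3.56 (SE 0.62, limma adjusted p = 0.00278). Mcm2 had 28.0 and 23.9 TPM, then 19.1 and 23.1, then 1.48, 6.79 and 2.62, with the same adult library on top. It fell by 2.71 (SE 0.46, limma adjusted p = 0.00245). Mcm6 read 85.8 and 64.1 TPM at E15, then 65.9 and 78.2 at P3, then 7.65, 24.8 and 16.2 in the adult. E15 and P3 overlapped, the adult lay below both, and the change from P3 was -2.21 (SE 0.42, limma adjusted p = 0.00762).

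Mcm3 stood at 94.4 and 74.6 TPM at E15, then 58.5 and 85.9 at P3, then 20.8, 25.6 and 14.2 in the adult, a log2 change of -2.04 from E15 (SE 0.29, limma adjusted p = 0.00100). Mcm4 changed least of the 6, from 54.2 and 43.3 TPM at E15 and 45.8 and 48.1 at P3 to 19.5, 19.6 and 15.9. Its change was -0.04 between E15 and P3 (95% confidence interval -0.59 to 0.50) and -1.32 between P3 and the adult (SE 0.22, limma adjusted p = 0.00430), and its adult fall from P3 held under every alternative. Mcm7 had 204 and 155 TPM, 81.7 and 122 TPM, and 30.4, 50.8 and 37.0 TPM, and its stages did not overlap. It fell by 2.18 from E15 to the adult (SE 0.27, limma adjusted p = 0.000513).

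The 6 subunits enter the ring in equal number, but their RNA levels (TPM, per length) were unequal in every library. Mcm7 was the highest of the 6 in all 7 libraries and Mcm2 the lowest in 6, with Mcm5 lowest in Adult replicate 3. The highest level over the lowest was 7.30 and 6.46 at E15, then 4.29 and 5.27 at P3, then 20.5, 7.47 and 18.7 in the adult, so that the spread in Adult replicate 2 was close to that at E15 and in the other adult libraries it was wider. Mcm7 shares exon sequence with Ap4m1 and Cops6 on the opposite strand, which also bears on its rank.

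**Figure D3:**
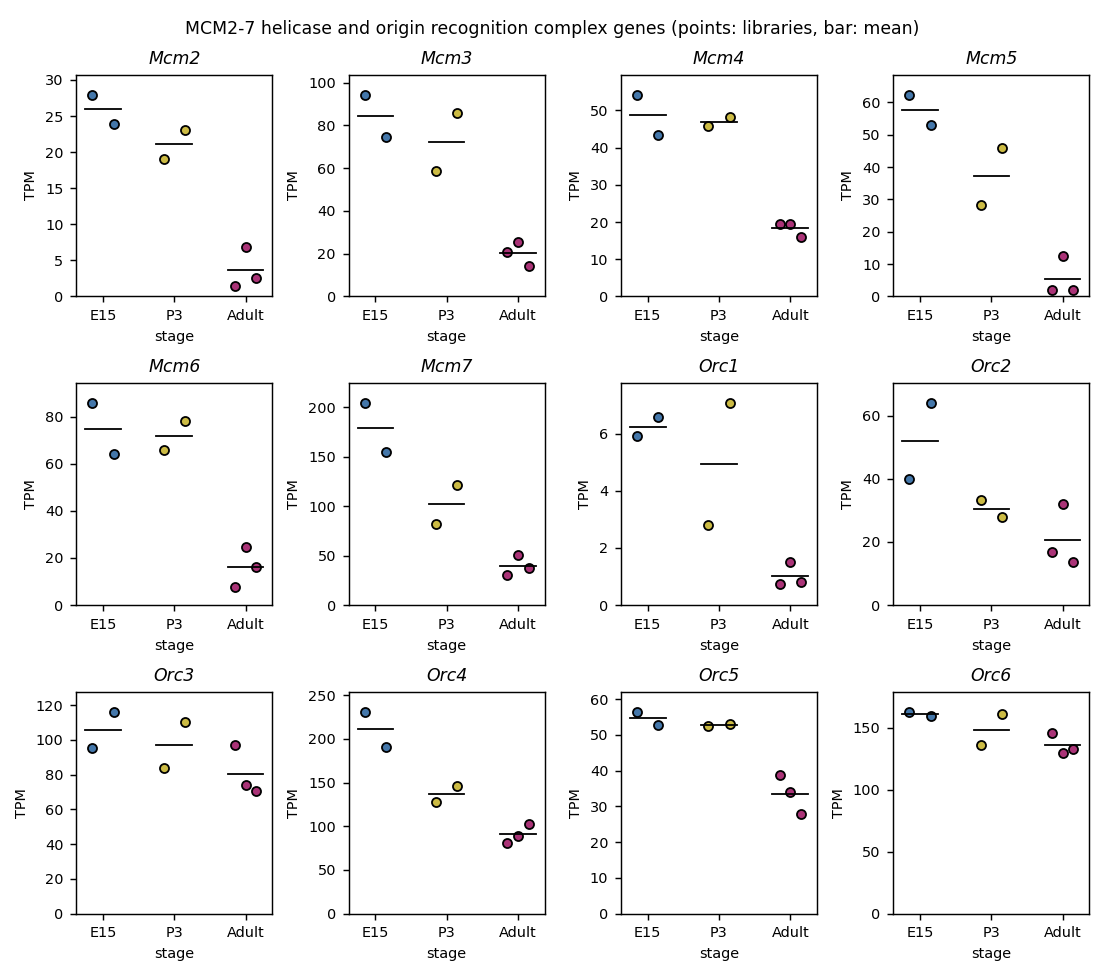
TPM (vertical axis, from 0) is shown by stage for the 6 MCM2-7 genes and the 6 ORC genes, with a point per library and a bar at the stage mean. Adult points lie below all E15 and P3 points for each MCM2-7 gene, while those of Orc3 overlap both earlier stages and those of Orc6 overlap P3.

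Genes that activate the helicase fell as a group from E15 to the adult, 7 of 7, with a median of -1.90, and 5 of 7 fell from P3. The first count was 3 without E15 replicate 2. The second was 2 without either E15 library, 3 without P3 replicate 1, 0 without P3 replicate 3 and 3 without Adult replicates 1 and 3 together. In the adult the group's summed TPM was 29.2% of that at E15.

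Gins3, a subunit of the GINS tetramer that joins MCM2-7 and CDC45, read 15.2 and 16.0 TPM at E15, then 9.63 and 11.9 at P3, then 3.70, 2.14 and 0.551 in the adult. It fell by 2.55 from E15 (SE 0.47, limma adjusted p = 0.00348), with no overlap between stages. Gins1 had 74.3 and 77.0 TPM at E15, then 45.2 and 76.8 at P3, then 13.4, 26.9 and 26.1 in the adult. Gins4 had 55.0 and 61.4 TPM at E15, then 29.4 and 45.3 at P3, then 25.2, 19.6 and 27.6 in the adult. The adult was lower than E15 for Gins1 (-1.79, SE 0.34, limma adjusted p = 0.00424) and for Gins4 (-1.25, SE 0.26, limma adjusted p = 0.00575). Gins2 was less even, at 63.9 and 59.1 TPM, then 91.9 and 63.9, then 5.94, 34.9 and 18.8 in Adult replicates 1, 2 and 3. Its call from E15 to the adult (-1.88, SE 0.58, limma adjusted p = 0.0328) was lost under 13 of 20 alternatives, and its exons overlap those of Gse1 on the opposite strand.

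Cdc45, which forms the active helicase with MCM2-7 and GINS, had 49.9 and 36.7 TPM at E15, then 27.7 and 41.1 at P3, then 10.7, 8.96 and 13.0 in the adult. It fell by 1.90 from E15 (SE 0.28, limma adjusted p = 0.00125), with the adult libraries close together. Exons of Cdc45 overlap those of Ufd1 on the opposite strand. Cdc7, the kinase that phosphorylates the MCM ring, was at 31.7 and 24.4 TPM, then 15.7 and 26.3, then 0.952, 10.8 and 4.40. The highest level over the lowest was 1.30 at E15, 1.67 at P3 and 11.3 over the adult libraries. All adult libraries lay below the earlier stages, and the change from E15 was -2.53 (SE 0.66, limma adjusted p = 0.0165). The call was lost without E15 replicate 1 or 2 (limma adjusted p = 0.135 and 0.0984), with no filter and without Adult replicates 1 and 3 together. Mcm10 fell by 2.21 (SE 0.32, limma adjusted p = 0.00112), to between 1.97 and 2.99 TPM in the adult.

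The polymerase and primase subunits did not move together. Of 11 genes, 7 fell from E15 to the adult (Pola1, Pold1, Pold2, Pold3, Pole3, Prim1 and Prim2) and 1 rose (Pold4). From P3 to the adult 4 fell (Pold2, Pole3, Prim1 and Prim2) and 1 rose (Pola2). Without E15 replicate 1 or 2, the genes lower than at E15 were 4 or 3 and none was higher. The summed TPM of the 11 genes in the adult was 60.9% of that at E15.

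Pola2, which encodes the regulatory B subunit of the polymerase alpha and primase complex, was the only gene of the 84 called between E15 and P3. It had 81.7 and 96.2 TPM at E15, then 36.4 and 41.9 at P3, then 99.6, 88.2 and 92.2 in the adult. P3 was below both other stages without overlap, while E15 and the adult overlapped. The log2 change was -1.16 from E15 to P3 (SE 0.19, limma adjusted p = 0.0103), 1.23 from P3 to the adult (SE 0.17, limma adjusted p = 0.00237) and 0.07 from E15 to the adult (95% confidence interval -0.33 to 0.47). The rise after P3 was called under every alternative. The fall before it was not called without either E15 library (limma adjusted p = 0.0560 and 0.112) or without P3 replicate 1 (limma adjusted p = 0.0864), nor with the replicate block (limma adjusted p = 0.0612) or in a fit on E15 and P3 alone (limma adjusted p = 0.0505). No other gene overlaps its exons in GENCODE M21.

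The other subunits of that complex went differently. Pola1, the catalytic subunit, had 39.3 and 52.3 TPM at E15, then 21.7 and 26.9 at P3, then 26.0, 17.7 and 31.3 in the adult, and the change from P3 to the adult was 0.01 (95% confidence interval -0.65 to 0.67). Prim1, the catalytic primase subunit, read 92.1 and 91.8 TPM at E15, then 82.9 and 92.7 at P3, then 24.6, 28.8 and 27.0 in the adult. It was near constant until P3 and then fell by 1.68 (SE 0.18, limma adjusted p = 0.000755). Prim2, the large primase subunit, lay at 67.0 to 81.8 TPM in the 4 earlier libraries and at 34.1 to 41.4 TPM in the adult, a log2 change of -1.06 from P3 (SE 0.19, limma adjusted p = 0.00589). Pola2 over Pola1 was therefore 1.56 to 2.08 at E15 and P3 and 2.94 to 4.98 in the adult, as a ratio of TPM.

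Pole3 and Pole4 encode the paired histone-fold subunits of polymerase epsilon. Pole3 had 109 and 97.1 TPM at E15, then 84.7 and 99.6 at P3, then 35.4, 37.9 and 32.7 in the adult, and it fell by 1.52 from E15 (SE 0.18, limma adjusted p = 0.000374). Pole4 had 62.9 and 63.1 TPM at E15, then 81.3 and 73.9 at P3, then 82.5, 83.2 and 91.7 in the adult. Its stages did not overlap, with E15 the lowest and the adult the highest. The change of 0.44 from E15 to the adult did not pass (95% confidence interval 0.07 to 0.81; limma adjusted p = 0.0597), and it passed with median-of-ratios scaling (0.73, limma adjusted p = 0.0130). Pole4 over Pole3 was 0.575 to 0.960 at E15 and P3 and 2.20 to 2.80 in the adult.

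Pold4, the smallest subunit of polymerase delta, had 7.79 and 7.89 TPM at E15, then 13.1 and 13.2 at P3, then 20.7, 18.1 and 13.1 in the adult. All adult libraries exceeded those at E15, by a log2 change of 1.03 (SE 0.28, limma adjusted p = 0.0204), and 1 of them reached only the P3 level. The call was lost without either E15 library (limma adjusted p = 0.101 and 0.0991). Pold2, the subunit that holds the delta complex together, went the other way, at 33.4 to 39.1 TPM before and 7.50 to 11.8 TPM in the adult, a log2 change of -1.80 from E15 (SE 0.26, limma adjusted p = 0.000993).

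**Figure D4:**
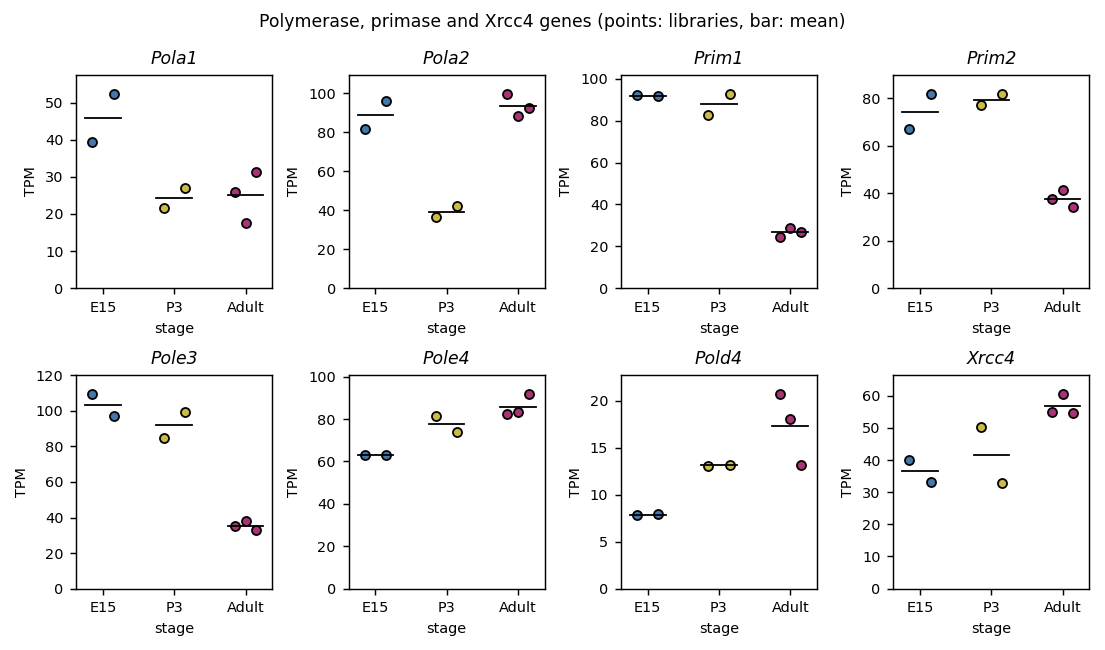
TPM (vertical axis, from 0) is shown by stage for 7 polymerase and primase genes and Xrcc4, with a point per library and a bar at the stage mean. Pola2 dips at P3 to 36.4 and 41.9 TPM, Prim1, Prim2 and Pole3 drop in the adult, and Pole4, Pold4 and Xrcc4 are highest there.

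Of the 9 genes of the clamp, its loader and RPA, 8 fell from E15 to the adult (median -1.17), and Rpa1 was not called. The call of Rpa2 was lost under 15 of 20 alternatives and that of Rfc1 under 10. From P3 to the adult 7 fell, without Rfc1 and Rpa2, and this count was 4 without P3 replicate 3 and 4 without Adult replicates 1 and 3 together. The group's summed TPM in the adult was 41.5% of that at E15, after 92.6% at P3.

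Pcna, the sliding clamp, was the most abundant of the 84 in 6 of 7 libraries (Orc6 was above it in Adult replicate 1), with 367 and 369 TPM at E15, then 391 and 444 at P3, then 135, 211 and 151 in the adult. P3 lay above E15 in both libraries without passing (0.18, 95% confidence interval -0.31 to 0.67), and the fall from P3 was 1.35 (SE 0.19, limma adjusted p = 0.00254). Rfc4, a loader subunit, had 219 and 188 TPM at E15, then 128 and 189 at P3, then 34.2, 59.3 and 42.7 in the adult, and fell by 2.17 from E15 (SE 0.26, limma adjusted p = 0.000444). Rfc2 had 302 and 249 TPM, then 168 and 242, then 62.2, 94.2 and 80.8, and fell by 1.80 (SE 0.23, limma adjusted p = 0.000577). Rfc2 and Rfc4 each overlap an exon of a gene on the opposite strand, Lat2 and Eif4a2.

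Rfc1, the large loader subunit, fell by 0.66 (SE 0.20, limma adjusted p = 0.0298), from 79.3 to 87.6 TPM at E15 to 45.2 to 58.9 TPM in the adult, a call lost under 10 of 20 alternatives. The level of Rfc2 over Rfc1 was 2.57 to 3.45 at E15 and P3 and 1.16 to 1.79 in the adult. Rpa3, the small RPA subunit, had 240.3 and 274 TPM at E15, then 247 and 238 at P3, then 126, 133 and 127 in the adult. It fell by 0.91 after P3 (SE 0.14, limma adjusted p = 0.00286), with little spread within a stage. Rpa1, the large DNA-binding subunit, had 78.4 and 70.5 TPM, then 109.9 and 90.5, then 61.4, 53.1 and 60.5, so that P3 was its highest stage. It was lower in the adult than at P3 (-0.77, SE 0.18, limma adjusted p = 0.0177; lost under 7 of 20 alternatives) but not called against E15 (-0.35, 95% confidence interval -0.76 to 0.06).

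The 3 genes that finish Okazaki fragments had the lowest median change of any group from E15 to the adult, while from P3 that of nucleotide supply was lower (-2.21). All 3 were lower in the adult than at E15 (median -2.88) and than at P3 (median -2.08), and their adult sum was 18.1% of that at E15. Fen1, the flap endonuclease, had 43.3 and 33.8 TPM at E15, then 20.7 and 22.5 at P3, then 3.70, 4.65 and 4.78 in the adult. The 3 stages stepped down without overlap, by 2.88 in all (SE 0.27, limma adjusted p = 0.000120), and both adult comparisons were called under every alternative. Exons of Fen1 overlap those of Gm10143 and Tmem258 on the opposite strand. Lig1, the ligase that seals the fragments, had 99.7 and 104 TPM at E15, then 63.3 and 71.5 at P3, then 20.3, 18.5 and 29.9 in the adult, a fall of 2.13 (SE 0.24, limma adjusted p = 0.000290). Exo1, an exonuclease that also serves mismatch repair and break resection, had 38.1 and 16.8 TPM, then 12.3 and 17.5, then 1.61, 0.598 and 7.16. Adult replicate 3 was its highest adult library. Exo1 fell by 3.02 from E15 (SE 0.67, limma adjusted p = 0.00789). That call was lost under 1 of 20 alternatives, without E15 replicate 1 (log2 change -2.455). Its call from P3 was lost under 13 of 20.

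The 3 genes of nucleotide supply fell in both adult comparisons, with an adult sum of 21.3% of the E15 mean and a P3 sum of 91.3%. Without P3 replicate 3 none of the 3 was called from P3 to the adult. Rrm2, the small and S-phase-bound subunit of ribonucleotide reductase, had 356 and 230.4 TPM at E15, then 204 and 339 at P3, then 30.9, 73.5 and 77.4 in the adult. E15 and P3 overlapped and the adult lay far below, by 2.21 from P3 (SE 0.41, limma adjusted p = 0.00761). Rrm1, the large subunit, had 182 and 152 TPM, then 126 and 155, then 40.7, 56.5 and 30.9, a change of -1.73 from P3 (SE 0.26, limma adjusted p = 0.00285). Tyms, thymidylate synthase, had 254 and 229.7 TPM at E15, then 181 and 276 at P3, then 27.2, 76.0 and 36.2 in the adult. Its change from E15 was -2.49 (SE 0.39, limma adjusted p = 0.00157), with Adult replicate 2 the highest adult library.

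Among the 5 mismatch repair genes, 3 fell from E15 to the adult, Msh3 and Msh6 among them, and the meiotic pair of Msh4 and Msh5 was not called. The count of 3 was 1 without E15 replicate 1, and none of the 5 was called from P3 to the adult in limma (2 at an unadjusted p under 0.05). The count from P3 was 2 with a filter at a mean of 5 TPM and 1 without the mean-variance trend. Of all rows, 13.8% were called lower from P3 to the adult, and 3470 of 15931 were lower at an unadjusted p under 0.05. Msh6, which serves the recognition of base mismatches, had 21.6 and 18.1 TPM at E15, then 9.31 and 14.8 at P3, then 6.06, 5.13 and 5.59 in the adult. Its adult libraries lay below all earlier ones. Msh3, which serves the recognition of loops, had 38.5 and 42.5 TPM, then 20.5 and 30.0, then 23.1, 18.5 and 19.2, so that P3 and the adult overlapped. From E15 the changes were -1.66 for Msh6 (SE 0.30, limma adjusted p = 0.00330) and -0.97 for Msh3 (SE 0.24, limma adjusted p = 0.0145; lost under 4 of 20 alternatives). Msh5, a meiotic gene, had 2.90 and 2.18 TPM, 2.55 and 5.57 TPM, and 0.726, 1.86 and 3.79 TPM. Its stages overlapped, and Msh4 lay between 1.84 and 4.69 TPM. Exons of Msh6 overlap those of Fbxo11 on the opposite strand, and exons of Msh3 also overlap a gene on the opposite strand.

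The Fanconi anaemia and BRCA genes, which repair DNA cross-links and protect stalled forks, were mixed and low. Of 12, 5 fell from E15 to the adult (Brca1, Brca2, Fanca, Fancb and Fancc; median of the 12, -1.11), and Fancb also fell from P3. Of all rows, 24.7% fell from E15 to the adult and 13.8% from P3. The count of 5 was 0 without E15 replicate 1, 1 without E15 replicate 2, 3 without P3 replicate 1, P3 replicate 3 or Adult replicate 3, and 2 with no filter or with median-of-ratios scaling. From P3 the count of 1 was 4 without Adult replicate 2 and 2 without Adult replicate 1, and 0 without each other library.

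Brca1, which promotes resection of broken ends, had 14.5 and 15.1 TPM at E15, then 6.08 and 10.7 at P3, then 0.197, 8.33 and 1.07 in the adult. The adult libraries differed by more than any earlier pair, and the change of -2.47 (SE 0.77, limma adjusted p = 0.0330) was lost under 11 of 20 alternatives. Brca2, which acts in strand exchange, had 37.6 and 33.7 TPM, then 19.9 and 14.4, then 16.0, 15.1 and 9.94. Its log2 change was -1.03 before P3 and -0.32 after it, neither of which passed, and it was lower in the adult than at E15 (-1.34, SE 0.29, limma adjusted p = 0.00681). Fanca, a scaffold of the core complex, had 26.0 and 21.5 TPM, then 10.3 and 17.7, then 8.14, 6.12 and 4.55, a change of -1.79 from E15 (SE 0.34, limma adjusted p = 0.00424).

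Fance, a core complex subunit, had 22.3 and 22.8 TPM at E15, then 12.9 and 13.4 at P3, then 6.22, 42.0 and 24.0 in the adult. Its earlier pairs were tight and the adult libraries spread on both sides of them, so no comparison passed (Adult against E15, -0.25, 95% confidence interval -1.70 to 1.20). Fancl, the ubiquitin ligase of the pathway, had 17.7 and 21.2 TPM, then 33.3 and 20.1, then 11.4, 24.9 and 11.0, and its stages overlapped. Fancd2, the ligase's substrate, ran from 0.236 TPM in Adult replicate 1 to 10.8 TPM in Adult replicate 2, against 4.47 to 7.46 TPM in the earlier libraries. Exons of Fancl overlap Vrk2, and those of Fancd2 overlap Fancd2os, on the opposite strand.

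Homologous recombination divided between genes that fell, Rad54l and Rad54b among them, and genes that were not called, which included Rad50, Rad52, Rad51b, Rad51c and Rad51d. From E15 to the adult 7 of 13 fell (among them Mcm8, Rad51ap1, Rad54b, Rad54l, Xrcc2 and Xrcc3; median of the 13, -1.25), and 4 fell from P3 (Rad51ap1, Rad54b, Rad54l and Xrcc2). The first count was 2 without either E15 library and 3 with no filter or without Adult replicates 1 and 3 together. The second was 2 without either E15 library or without P3 replicate 1, and 1 without P3 replicate 3.

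Rad54l, a motor that drives strand exchange, had 31.1 and 31.7 TPM at E15, then 14.5 and 23.2 at P3, then 3.37, 4.75 and 4.14 in the adult. It fell by 2.68 from E15 (SE 0.30, limma adjusted p = 0.000307), its stages did not overlap, and both adult comparisons were called under every alternative. Rad54b, its paralog, had 42.4 and 30.7 TPM, then 27.6 and 35.9, then 8.78, 4.94 and 9.13, and fell by 2.15 (SE 0.32, limma adjusted p = 0.00126). It shares exon sequence with Fsbp on the same strand, and exons of Rad54l overlap those of Lrrc41 on the opposite strand. Rad51ap1, a cofactor of strand exchange, had 31.8 and 37.5 TPM, then 26.2 and 35.0, then 11.3, 4.93 and 14.0, and fell by 1.78 (SE 0.40, limma adjusted p = 0.00829).

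Rad52, an annealing factor, had 43.5 and 30.8 TPM at E15, then 33.0 and 28.4 at P3, then 32.5, 40.1 and 22.6 in the adult, and its stages overlapped throughout. Its change from E15 to the adult was -0.24 (95% confidence interval -0.90 to 0.42). Rad50, of the complex that senses and trims breaks, lay between 13.2 and 16.0 TPM in all 7 libraries, and its change was -0.05 (95% confidence interval -0.61 to 0.51). Rad51b, which acts in recombination, was listed at 0 in Adult replicate 1 and read 3.75 and 8.17 TPM in the other adult libraries, against 3.39 to 12.7 TPM before.

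Of the 4 genes of single-strand break repair and end joining, Xrcc1, Xrcc5 and Xrcc6 fell from E15 to the adult and Xrcc4 did not. The count of 3 was 1 without E15 replicate 1. From P3, Xrcc5 and Xrcc6 fell, which was 1 of the pair without either E15 library and none without either P3 library. The adult sum of the 4 genes, 69.9% of that at E15, was the highest share of any group.

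Xrcc1, a scaffold for single-strand break repair, had 40.4 and 36.7 TPM at E15, then 21.4 and 23.7 at P3, then 16.1, 16.4 and 18.0 in the adult, and fell by 1.15 from E15 (SE 0.21, limma adjusted p = 0.00360). Xrcc6 and Xrcc5 encode Ku70 and Ku80, the pair that caps broken ends. Xrcc6 had 83.1 and 54.5 TPM, then 59.7 and 65.1, then 29.6, 36.1 and 23.7, a change of -1.17 from E15 (SE 0.26, limma adjusted p = 0.00777). Xrcc5 had 28.1 and 27.7 TPM, then 31.2 and 35.9, then 15.7, 14.0 and 20.4, and P3 was its highest stage. It fell by 0.72 from E15 (SE 0.24, limma adjusted p = 0.0423), a call lost under 12 of 20 alternatives, among them median-of-ratios scaling (-0.44, limma adjusted p = 0.212). Xrcc4, the partner of DNA ligase IV, had 40.0 and 33.0 TPM at E15, then 50.2 and 32.8 at P3, then 55.0, 60.5 and 54.6 in the adult. Every adult library exceeded every earlier one. The change of 0.63 from E15 did not pass (95% confidence interval 0.10 to 1.15; limma adjusted p = 0.0603) and passed with median-of-ratios scaling (0.92, limma adjusted p = 0.0198). An exon of Tmem167 overlaps it on the opposite strand.

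Of the genes matched by name only, Fancd2os, an antisense neighbour of Fancd2, had 0.714 and 0.651 TPM at E15, then 2.71 and 1.95 at P3, then 0, 0.233 and 0.259 in the adult. P3 was its highest stage, and it was lower in the adult than at P3 (-1.51, SE 0.33, limma adjusted p = 0.0143). That call was lost without P3 replicate 1 or 3 (limma adjusted p = 0.0597 and 0.0501), with the replicate block and without Adult replicates 1 and 3 together. Rad54l2, a RAD54-like ATPase, had 7.21 and 14.2 TPM, then 2.98 and 6.73, then 1.32, 3.15 and 0.566, and was lower in the adult than at E15 (-2.18, SE 0.53, limma adjusted p = 0.0126). Its call was lost without E15 replicate 2 and without Adult replicates 1 and 3 together.

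**Figure D5:**
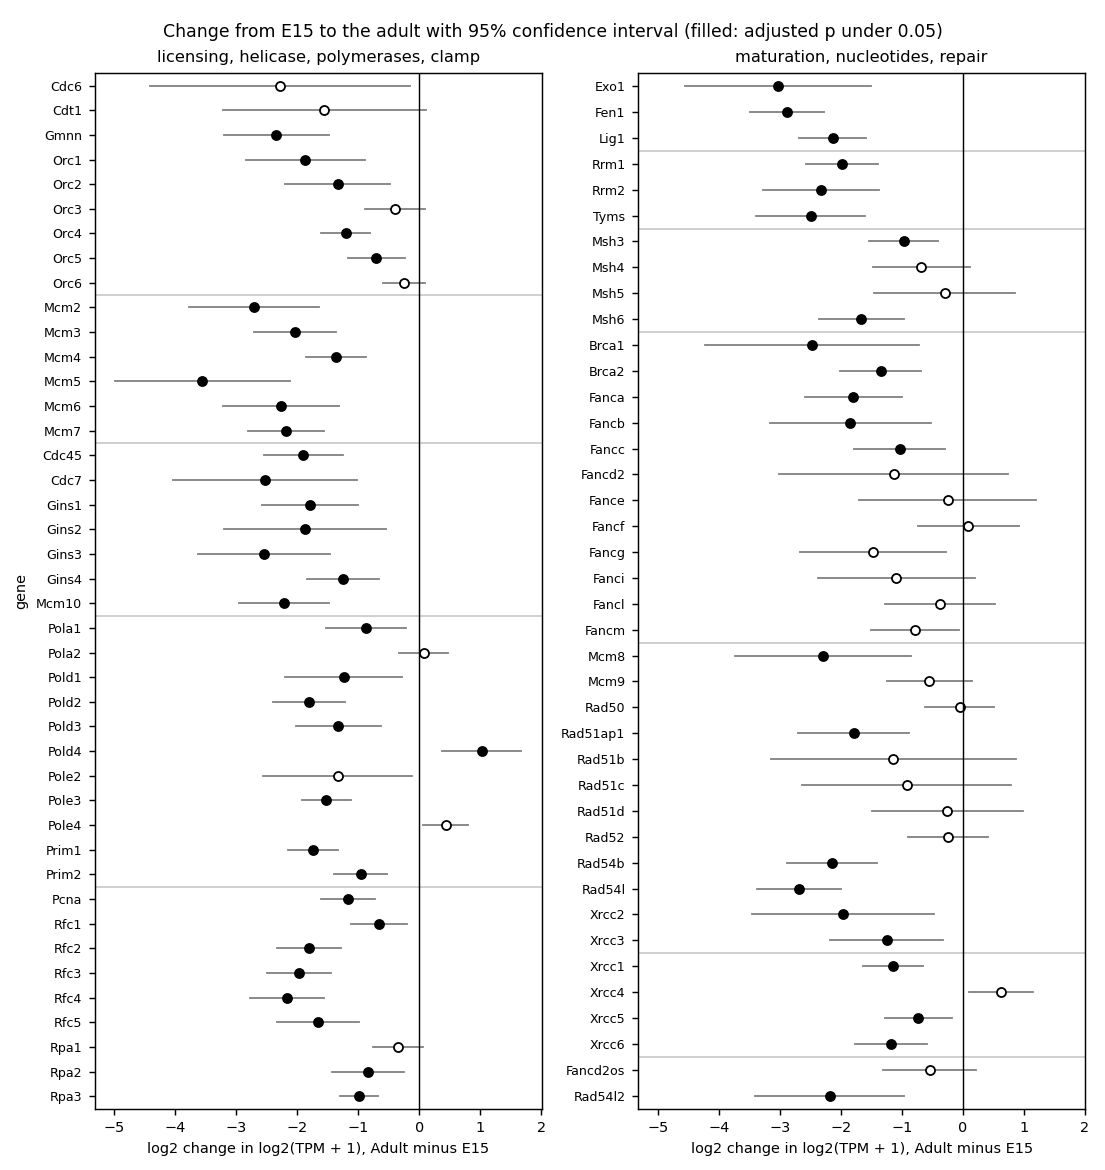
The log2 change from E15 to the adult is shown on the horizontal axis for 82 of the 84 genes, with its 95% confidence interval, and filled points are called in limma. The 56 of them that fell lie left of 0, Pold4 is the filled point right of 0, and Mcm5 reaches -3.56.

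Libraries of the same stage differed across these genes. At P3, replicate 3 was above replicate 1 in 66 of the 84 genes, by a median of 0.27 on the log2(TPM + 1) scale, where 54.0% of all rows were higher and the median was 0.05. The G2 and M phase markers (872 and 1281 TPM in sum), the immature neuron markers (699.9 and 1600.4) and the astrocyte markers (5930 and 3656) also differed between these libraries, and their part in the difference was not tested. In the adult, 20 genes spanned at least 5-fold between their lowest and highest library (23.8%, against 21.5% of all rows), and none did at E15 or P3 (8.81% and 7.87% of all rows). The adult share was thus close to that of all rows. The span was taken over 3 libraries in the adult and 2 at each earlier stage, so stages cannot be compared directly. Adult replicate 2 was the highest library for 12 of the 20, among them Brca1, Mcm5, Cdc7, Gins2 and Fancd2. Adult replicate 1 was the lowest for 13. Over all 84 genes, replicate 2 was the highest adult library in 48.8% and replicate 1 the lowest in 44%. Of all rows, these shares were 36.2% and 31.3%. They were not counted among all rows with a 5-fold span.

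The marker sums of the adult libraries were set beside this. G2 and M phase markers summed to 113, 152 and 137 TPM in Adult replicates 1, 2 and 3, but single markers did not all follow the sum. Aurka, Aurkb, Bub1, Ccnb1, Cenpf and Mki67 were highest in replicate 2. Cdk1, Ccna2 and Plk1 were highest in replicate 1, and Top2a in replicate 3. Mature oligodendrocyte markers (9 genes) summed to 716, 81.7 and 490.2 TPM, and Mog, Cldn11 and Opalin were listed at 0 in replicate 2. At E15 replicate 1, 3 red blood cell genes summed to 2819 TPM, against 10.8 to 42.5 in the other libraries. The part of these differences in the gene calls was not tested, beyond the counts given without each library.

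Genes of the same processes that the name rule does not take were counted in the same way. Of 37 tested replication genes outside the 84, 25 fell (67.6%, against 24.7% of all rows) and 1 rose (Donson) from E15 to the adult, 16 fell from P3 to the adult (43.2%, against 13.8%) and 3 fell from E15 to P3. The largest falls from E15 to the adult were those of Dbf4, the activator of CDC7 (-3.53), Clspn, the checkpoint adaptor at the fork (-3.12), and Uhrf1, which recruits the maintenance methyltransferase (-2.65). The 3 that fell from E15 to P3 were Rrm2b, the p53-induced reductase subunit (-1.54), Timeless, a fork protection factor (-1.11), and Dnmt1, the maintenance methyltransferase (-0.91). Of 60 tested repair genes outside the 84, 28 fell from E15 to the adult (46.7%) and 2 rose (Ddb2 and Mus81). From P3 to the adult, 15 of them fell (25%) and 1 rose. None of the 60 was called from E15 to P3 in limma. At an unadjusted p under 0.05, 6 of the 60 were lower and 2 higher there, against 1794 and 1963 of all 15931 rows. H2afx, the break-marking histone, had 76.9 and 73.5 TPM at E15, then 19.1 and 30.0 at P3, then 3.93, 1.91 and 5.35 in the adult, and it showed the largest fall of that list (-4.08). Ube2t, the ubiquitin-conjugating enzyme of the Fanconi pathway, and Mre11a, the nuclease partner of RAD50, followed (-3.77 and -3.06). Mre11a ran from 24.8 TPM in both E15 libraries to between 1.14 and 3.26 TPM in the adult, while Rad50 stayed between 13.2 and 16.0 TPM.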

How the data were processed

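RNA was measured in 7 libraries of sorted HopX-positive cells grouped by the labelled stage (E15 n = 2, P3 n = 2, Adult n = 3). The deposited table holds TPM values made by the authors, 24978 rows, used as deposited. The submitters' processing notes name bcl2fastq, Bowtie and build mm9 without versions. The sources used here do not give the quantifier, its annotation or its use of strand. TPM keeps no depth, so no count test was run, and an exact 0 can be a failed estimate.

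The 15931 rows that reached 1 TPM in 2 or more libraries entered the test as log2(TPM + 1) with limma 3.58.1 (R 4.3.3; lmFit, eBayes with trend, 4 residual and 4.27 prior degrees of freedom), with stage as the only term. The Benjamini-Hochberg adjusted p was taken over all rows, and the threshold was 0.05. The fit was tested on simulated data. Group medians and sums carry no test.

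The members, roles and lists were chosen with earlier results of these data known. Values in every library are given for up to 4 members of each role with the highest mean TPM, every member called between E15 and P3 or called higher, and the 10 largest falls from E15 to the adult. Other members are named by their counts or were chosen after their values were seen. A few members are counted but not reported here by name. Promoters and exon overlaps came from RefSeq (GRCm38.p6) and GENCODE M21.

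Alternatives were pseudocounts of 0.1 and 5, no filter, a filter at a mean of 5 TPM, quantile normalization, median-of-ratios scaling, robust estimation or no trend in limma, a replicate block, fits on the compared stages alone, a 2-fold minimum and leaving out each library. Leaving out Adult replicates 1 and 3 together or the 10 most abundant genes was added after seeing the data.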

Additional observations from a re-analysis of the deposited data

How the results depend on the processing

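No called change of the 84 members changed direction under the 20 alternatives run, while uncalled changes near 0 changed sign in 67 of 1673 values between E15 and P3, and in 25 (adult against P3) and 23 (adult against E15) of as many. Members lower from E15 to the adult (58) ranged from 31 to 56 with a library left out and from 41 to 60 otherwise. Members higher there (1) were 2 without a filter, 2 with a filter at a mean of 5 TPM, 2 in fits on the compared stages alone, 3 with median-of-ratios scaling, 3 with quantile normalization, 3 without the 10 most abundant genes, and 0 to 2 with a library left out. Members lower from P3 to the adult (39) ranged from 11 to 44 with a library left out and were 22 without Adult replicates 1 and 3 together. Members higher there (1) were 2 without those adult libraries and 1 to 2 with a library left out. The lower call from E15 to P3 (1) was 0 in a fit on those stages alone and 0 to 1 with a library left out.

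Between P3 and the adult, the median log2 change (-1.11) was -1.36 with a pseudocount of 0.1, -0.78 with 5, -0.88 without Adult replicates 1 and 3 together and -1.31 to -0.98 with a library left out. From E15 to the adult (-1.35) it was -1.68, -1.13, -1.06 with median-of-ratios scaling and -1.58 to -1.26. From E15 to P3 (-0.29) it was -0.50 to -0.067 with a library left out. Where a stage kept 1 library, that library was assumed to vary like the other stages.

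The labels do not state that replicate numbers pair the libraries. Correlations of same-numbered libraries, taken on deviations from the stage mean, lay between -0.02 and 0.02. At E15 and P3, with 2 libraries each, such deviations mirror each other, so these correlations cannot decide whether libraries were paired. With the replicate block, 50 members were lower from E15 to the adult (median -1.46), 30 from P3 to the adult (median -1.21) and 0 from E15 to P3 (median -0.17).

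The causes were not tested. The unknown depth limits what can be said of genes near 0.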
